A study of Homo sapiens with 6 samples.

Results

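The genes described here make retinoic acid, move its precursor into the cell or break it down. They are a set of 9 genes chosen by function (STRA6, RBP4, DHRS3, ALDH1A1, ALDH1A2, ALDH1A3, CYP26A1, CYP26B1 and CYP27C1), and all 9 were found among the 18417 genes measured. Their RNA was read on 6 Affymetrix arrays with probes along whole transcripts. The cells were A204, an established human line of rhabdoid tumour, a tumour type that has typically lost SMARCB1, part of the SWI/SNF remodeller of chromatin. On 3 arrays was RNA of A204 cells kept for 12 h with SAHA, also called vorinostat, which blocks histone deacetylases (HDACs). The 3 control arrays held RNA of A204 cells given DMSO by the treatment protocol, although the treatment field reads none. The dose of SAHA is printed with an incomplete unit and is not stated here. Both groups grew in DMEM with serum, itself a source of retinol, and no retinoid is mentioned in the labels. All arrays are from 1 cell line. Whether arrays of 1 group stem from different cultures is not said, so the p-values rest on array-to-array spread that may be technical only.

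Vitamin A circulates as retinol bound to a carrier protein and enters many cells through a membrane receptor. Inside the cell retinol is oxidised reversibly to retinal, and retinal irreversibly to retinoic acid, which binds nuclear receptors of the RAR and RXR families at paired DNA sites and switches on target genes. Enzymes of the CYP26 family hydroxylate retinoic acid for removal, and several genes of uptake and removal are themselves raised by retinoic acid, which makes the pathway self-limiting.

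Sequence before the gene starts is shown first, because paralogs of the synthesis step differed in it and because the repeat known to bind retinoic acid receptors could be searched there. The windows are the 250 bases before each start listed by RefSeq on GRCh38.p14, read on the strand of the gene, and all 9 genes had at least 1 window, 20 windows in all. For the genes of the 3 retinal dehydrogenases, the window of the outermost start is printed, with matches to the CCAAT box (CCAAT) and the GC box (GGGCGG), on either strand, in capitals. ALDH1A1 lies at chr9:72953054-72953303 on the minus strand, ALDH1A2 at chr15:58065712-58065961 on the minus strand and ALDH1A3 at chr15:100879581-100879830 on the plus strand.
ALDH1A1: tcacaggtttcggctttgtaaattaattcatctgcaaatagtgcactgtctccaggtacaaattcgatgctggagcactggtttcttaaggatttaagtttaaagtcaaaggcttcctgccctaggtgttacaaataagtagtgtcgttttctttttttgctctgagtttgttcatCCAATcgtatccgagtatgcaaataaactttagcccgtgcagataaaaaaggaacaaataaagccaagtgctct
ALDH1A2: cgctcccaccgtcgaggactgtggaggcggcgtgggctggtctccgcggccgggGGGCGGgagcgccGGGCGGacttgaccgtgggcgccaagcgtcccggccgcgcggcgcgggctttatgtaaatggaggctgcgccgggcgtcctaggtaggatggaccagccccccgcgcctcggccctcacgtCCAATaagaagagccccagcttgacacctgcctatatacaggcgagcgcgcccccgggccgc
ALDH1A3: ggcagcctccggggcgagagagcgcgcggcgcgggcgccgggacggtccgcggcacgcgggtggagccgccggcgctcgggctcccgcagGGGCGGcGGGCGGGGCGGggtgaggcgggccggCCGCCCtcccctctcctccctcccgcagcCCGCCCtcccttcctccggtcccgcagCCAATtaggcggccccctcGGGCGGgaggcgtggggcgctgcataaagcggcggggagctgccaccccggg
Each of these windows held 1 CCAAT box, its last base 70, 58 and 67 bases before the start in ALDH1A1, ALDH1A2 and ALDH1A3, a motif found in 32.0% of all 35114 windows. They differed in base composition. The ALDH1A1 window was 38.4% G or C with 6 CpG dinucleotides and no GC box, whereas that of ALDH1A2 was 72.8% G or C with 33 CpG and 2 GC boxes and that of ALDH1A3 was 82.4% with 38 CpG and 6 GC boxes, overlapping matches included. A GC box is common, with a match in 42.6% of all windows. The median over all windows was 58% with 11 CpG. The inner start of ALDH1A2 had 41.6% G or C and 1 CpG.

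Retinoic acid receptors bind direct repeats of a 6-base half-site with a spacer that is often 5 bases. The half-site AGGTCA was searched together with its common variant AGTTCA and with the forms that begin with G, which are GGGTCA on one hand and GGTTCA on the other. Among the windows of the 9 genes, only 1 window of CYP26A1 held such a spacer-5 repeat, on the strand opposite to the gene, with either strand searched. The 30 bases around it, read on the plus strand at chr10:93073796-93073825, end 68 bases before the inner start, and capitals mark both half-sites in their reverse complement.
CYP26A1: ttaaagaTGAACTttgggTGAACTaattgt
This repeat is rare, with a match in 26 windows, 0.074% of all. The same repeat with a spacer of 2 bases was found in 0 windows of the 9 genes and in 0.0313% of all windows. Single half-sites were found in 7 of the 20 windows, against 33.8% of all windows, a share close to that background. These windows belonged to 5 of the 9 genes (ALDH1A2, CYP26A1, CYP27C1, DHRS3 and STRA6), against 38.8% of all genes, and several of the 9 have more than 1 window. A match describes the letters and shows no binding, and receptor sites outside these windows were not searched.

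As a check of the treatment, CDKN1A, the gene of the cell-cycle inhibitor p21 and a classical gene raised by HDAC inhibitors, was at 11.63 ± 0.03 in SAHA and 10.33 ± 0.07 in control cells (log2, SD, n = 3 each). TYMS, the thymidylate synthase gene and a classical repressed gene, was at 8.58 ± 0.07 in SAHA and 12.61 ± 0.03 in control. All levels are RMA signals on the log2 scale, where 1 unit is a 2-fold difference, and levels of different genes are not comparable because each probe set responds differently. Array medians lay between 142 and 149 on the linear scale, and arrays correlated at 0.9965 to 0.998 within groups and at 0.9728 to 0.9738 between groups (Pearson, across all probe sets, which are not independent). The rhabdoid markers VIM, KRT8 and KRT18 had levels of 12.61 to 13.56 on all arrays. VIM and KRT18 were lower in SAHA, by -0.18 and -0.21 (adjusted p = 0.00536 and 0.00278, limma), and KRT8 (change -0.07) did not pass. SMARCB1 was at 7.22 ± 0.05 in SAHA and 7.74 ± 0.04 in control, and without detection calls an absent transcript cannot be told apart from a dim one. Of 14 measured markers of muscle, epithelium, blood, endothelium and liver, 3 were higher, 4 lower and 7 did not pass. These 7 of 14 passing stand against 60.0% of all genes, 31.1% higher and 28.9% lower. The muscle genes DES and CKM changed by 0.76 and 0.45 in SAHA, while the muscle regulators MYOD1 and MYOG did not pass. The muscle gene MYH3 changed by -0.15 and did not pass (adjusted p = 0.0648, limma). The epithelial genes EPCAM and CDH1 passed in opposite directions, with changes of 0.14 and -0.17. The endothelial gene CDH5 changed by -2.19, whereas PECAM1, the other endothelial marker, changed by 0.13 and did not pass (adjusted p = 0.0958, limma). CDH5 was at 10.54 ± 0.03 in SAHA and 12.73 ± 0.03 in control. A high signal was thus not particular to the rhabdoid markers. The blood markers PTPRC and CD3E did not pass, and the part of these markers in the results was not tested.

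The comparison of SAHA with control asked how the 9 genes differed after 12 h of HDAC inhibition. ALDH1A1, ALDH1A3 and RBP4 were higher in SAHA, and CYP27C1, DHRS3, STRA6, ALDH1A2 and CYP26A1 were lower, at an adjusted p under 0.05 (limma, Benjamini-Hochberg over all 18417 genes). CYP26B1 did not pass. Of all genes tested 60.0% passed, 31.1% higher and 28.9% lower, so 8 of 9 passing, 3 higher and 5 lower, stands against a background in which most genes passed. At least 2-fold changes that passed were found for 4 of 9 genes (CYP27C1, ALDH1A1, DHRS3 and STRA6), against 11.3% of all genes. Values of the SAHA and control arrays did not overlap for 8 of 9 genes, against 65.4% of all genes. The median change of the 9 genes was -0.71 on the log2 scale, and that of all genes was -0.0027. In bulk RNA, a change in the share of cells that express a gene and a change of its RNA per cell cannot be told apart.

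**Figure D1:**
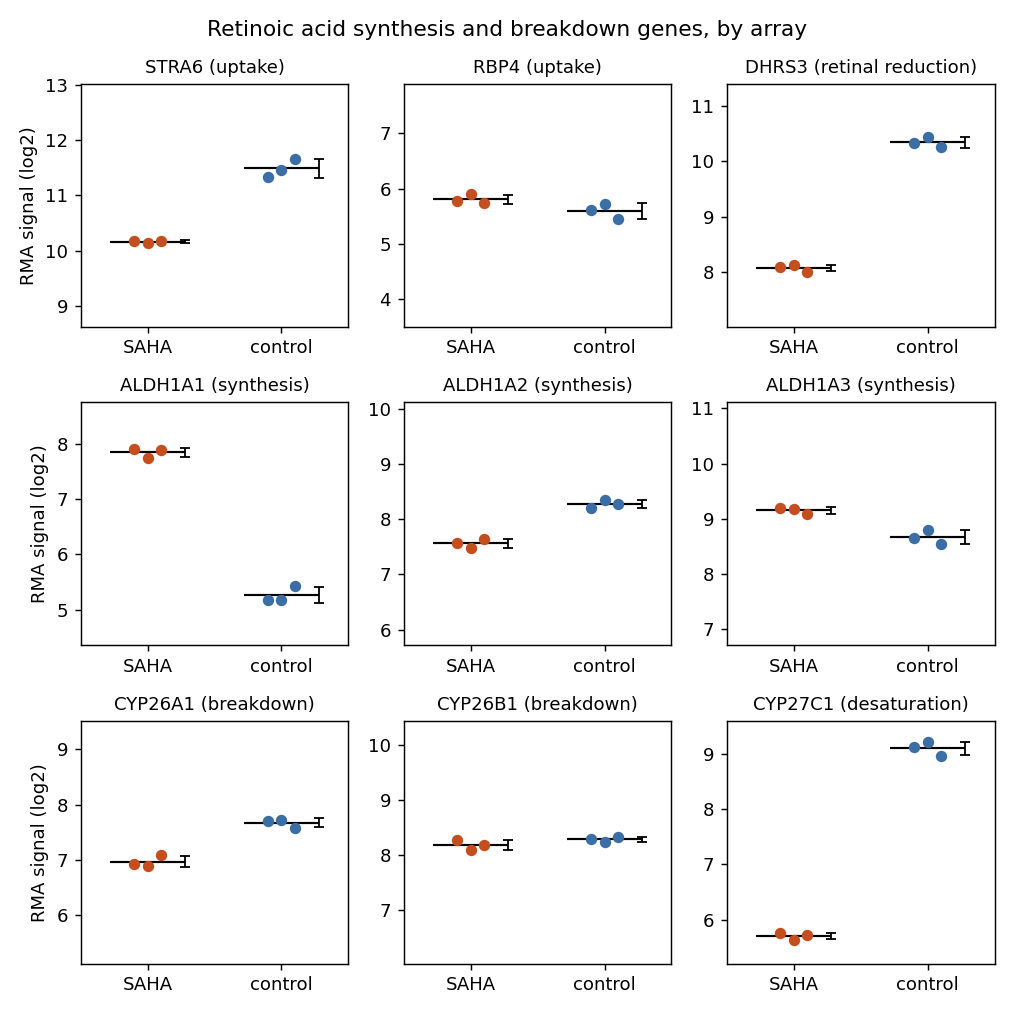
RMA signal (log2) of each of the 9 genes on every array, with SAHA left of control; each point is 1 array, the horizontal bar is the mean of 3 arrays and the error bar is ± SD. Every panel spans the same number of log2 units, so that the separation of about 3.4 units in CYP27C1 and the overlap in CYP26B1 can be set side by side; levels cannot be compared between panels.

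Retinol uptake was represented by STRA6, the membrane receptor that takes up retinol from its blood carrier, and RBP4, that carrier. STRA6 had levels of 10.18, 10.13 and 10.17 in SAHA cells, against 11.33, 11.47 and 11.67 in control cells. The SAHA arrays, with an SD of 0.03, all lay at least 1.15 below the lowest control array. The change was -1.33 (SE 0.08, 95% confidence interval -1.52 to -1.14), 2.51-fold lower (adjusted p = 2.5e-06, limma). RBP4 had levels of 5.77, 5.91 and 5.74 in SAHA cells and 5.61, 5.73 and 5.45 in control cells, so that the lowest SAHA array was only 0.012 above the highest control array. Its change of 0.21 (95% confidence interval 0.03 to 0.39) was at the threshold (adjusted p = 0.0499, limma). Over 14 alternatives its adjusted p (limma) was between 0.0159 and 0.159. The call of RBP4 ended without SAHA replicate 1 (adjusted p = 0.0781), SAHA replicate 2 (adjusted p = 0.159), SAHA replicate 3 (adjusted p = 0.0591), control replicate 1 (adjusted p = 0.0976) or control replicate 3 (adjusted p = 0.131), and its change was 0.14 to 0.28 with 1 array left out. The main source of RBP4 in the body is the liver. The hepatocyte gene ALB was at 4.47 ± 0.07 in SAHA and 4.56 ± 0.04 in control (SD, n = 3 each) and did not pass. The other hepatocyte genes were lower, TTR by -0.13 (adjusted p = 0.0453, limma) and APOA1 by -0.12 (adjusted p = 0.0386, limma). The call of TTR ended in 10 of 14 alternatives (adjusted p up to 0.145, limma).

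DHRS3 reduces retinal back to retinol and so withdraws substrate from retinoic acid synthesis. Its levels were 8.08, 8.12 and 8.00 in SAHA cells, against 10.34, 10.45 and 10.25 in control cells. The groups were separated by 2.14 between the nearest arrays, many times the SD of 0.06 in SAHA and 0.10 in control. DHRS3 was 4.85-fold lower in SAHA (change -2.28, SE 0.06, adjusted p = 4.05e-08, limma), the 157th largest fall among all genes.

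The retinal dehydrogenases ALDH1A1, ALDH1A2 and ALDH1A3 catalyse the irreversible step from retinal to retinoic acid, and ALDH1A1 and ALDH1A3 were higher while ALDH1A2 was lower. ALDH1A1, also a widely used marker of stem-like tumour cells, had levels of 7.90, 7.75 and 7.89 in SAHA cells, against 5.18, 5.18 and 5.43 in control cells. All SAHA arrays were at least 2.32 above the highest control array. ALDH1A1 rose 6.01-fold (change 2.59, SE 0.08, adjusted p = 6.97e-08, limma), the 95th largest rise among all genes. No detection call was made, so if its control level is background this fold is a lower bound. ALDH1A2, the main retinoic acid source of the early embryo, had levels of 7.56, 7.49 and 7.64 in SAHA cells and 8.20, 8.34 and 8.28 in control cells. It fell by 0.71 (SE 0.06, adjusted p = 1.39e-05, limma), 1.64-fold, with no overlap between the groups. ALDH1A3, the enzyme best known from the developing eye and nose and from several carcinomas, had levels of 9.20, 9.18 and 9.08 in SAHA cells, against 8.66, 8.79 and 8.55 in control cells. It rose by 0.49 (SE 0.07, adjusted p = 0.00036, limma), 1.40-fold, also without overlap. ALDH1A3 was the one gene of the 9 with a second probe set, which changed by -0.11 (adjusted p = 0.198 over all probe sets, limma). Averaged over both probe sets, its change was 0.19 (adjusted p = 0.00888, limma).

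CYP26A1 and CYP26B1 hydroxylate retinoic acid for removal, and CYP26A1 is the textbook gene raised by retinoic acid through the repeat printed above. CYP26A1 had levels of 6.93, 6.89 and 7.09 in SAHA cells, against 7.71, 7.73 and 7.59 in control cells. It was lower on every SAHA array and fell by 0.71 (SE 0.07, adjusted p = 3.03e-05, limma), 1.63-fold. CYP26B1 had levels of 8.28, 8.10 and 8.18 in SAHA cells and 8.29, 8.24 and 8.32 in control cells, which overlapped. Its change of -0.10 had a 95% confidence interval of -0.23 to 0.03 (adjusted p = 0.176, limma), which leaves room for a small fall and for hardly any rise.

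CYP27C1 desaturates retinol to its didehydro form, the vitamin A used for red-shifted vision in fish and amphibians and found in human skin. It showed the most marked change of the 9, with levels of 5.75, 5.64 and 5.72 in SAHA cells, against 9.12, 9.21 and 8.97 in control cells. The nearest arrays of the groups were 3.22 apart. CYP27C1 was 10.5-fold lower (change -3.40, SE 0.07, 95% confidence interval -3.56 to -3.24, adjusted p = 1.22e-08, limma), the 10th largest fall of 18417 genes. If its SAHA level is background, this fold is likewise a lower bound.

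**Figure D2:**
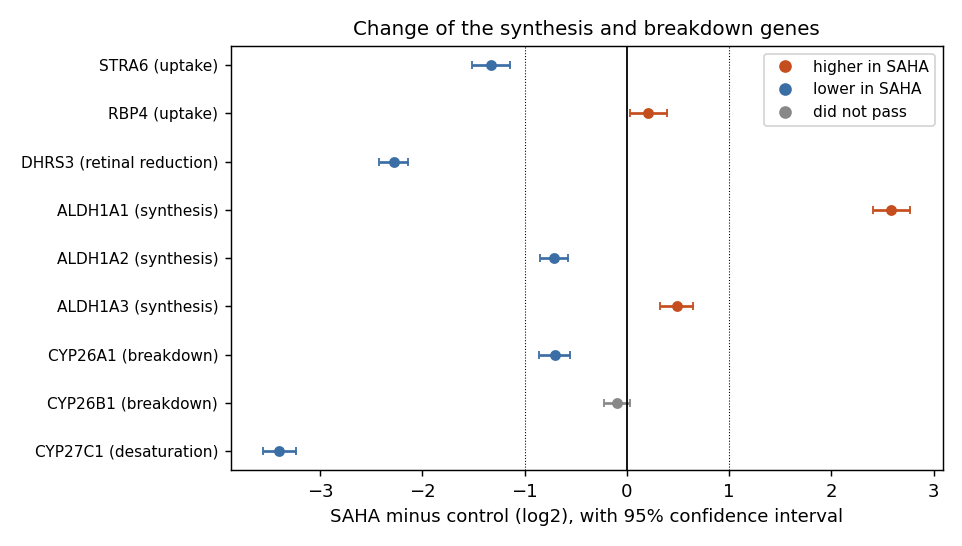
Change (SAHA minus control, log2) of each of the 9 genes with its 95% confidence interval from limma; orange genes were higher and blue genes lower at an adjusted p under 0.05, grey did not pass, and dotted lines mark 2-fold. CYP27C1 at -3.40, DHRS3 at -2.28 and ALDH1A1 at 2.59 stand furthest from 0, and the interval of CYP26B1 includes 0.

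Paralogs were then set against each other within each array, since their difference on the log2 scale does not depend on a constant shift of that array. The difference of ALDH1A1 and ALDH1A2 was 0.34, 0.26 and 0.25 on the SAHA arrays, against -3.02, -3.16 and -2.85 on the control arrays, a shift of 3.30 (SE 0.09). The sign of this difference says nothing of which enzyme is more abundant, as the probe sets differ. The difference of ALDH1A1 and ALDH1A3 shifted by 2.10 (SE 0.16), that of ALDH1A2 and ALDH1A3 by -1.20 (SE 0.10) and that of CYP26A1 and CYP26B1 by -0.61 (SE 0.10). Both ALDH1A3 shifts rest on its brighter probe set. With the mean of both ALDH1A3 probe sets they were 2.40 against ALDH1A1 and -0.90 against ALDH1A2. In all 4 pairs the SAHA and control arrays did not overlap. This follows from the values of the single genes given above and is no further support. Of single genes, 65.4% did not overlap, and the share among other gene pairs was not computed. The exact permutation test (two-sided) gave p = 0.1 for each pair, the smallest p that 3 against 3 arrays allow, and 0.1 after Benjamini-Hochberg adjustment over the 4 pairs, so this test cannot pass 0.05 here.

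**Figure D3:**
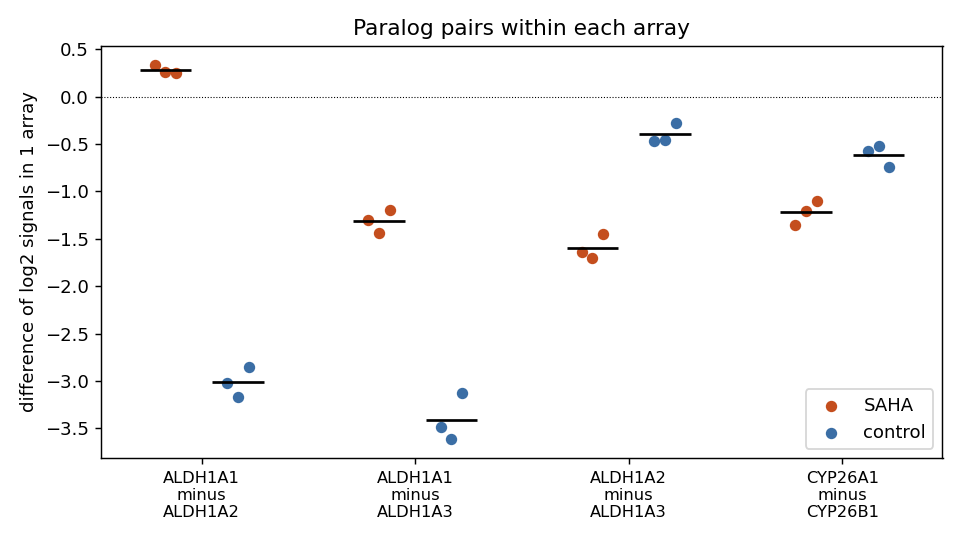
Difference of the log2 signals of paralog genes within 1 array, for 4 pairs, with SAHA left of control; each point is 1 array and the bar is the mean of 3. SAHA and control points are separate in every pair, as the values of the single genes already imply, most widely for ALDH1A1 minus ALDH1A2, with a shift of 3.30. ALDH1A3 is drawn by its brighter probe set only.

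The genes most like ALDH1A1 and CYP27C1 were sought among all other genes by the Euclidean distance of their 6 array values, each centred on the mean of the control arrays. Nearest to ALDH1A1 were HLA-DMA, a chaperone subunit of MHC class II peptide loading (change 2.57, distance 0.22), CORO1A, an actin-binding coronin of blood cells (change 2.69, distance 0.23), and RGS2, a regulator of G protein signalling (change 2.49, distance 0.23). Nearest to CYP27C1 were GCNT4, a mucin-type glycosyltransferase (change -3.37, distance 0.18), H2AC21, a histone gene with close copies that could share its probes (change -3.33, distance 0.19), and MACROH2A2, a macroH2A variant (change -3.35, distance 0.25). With 2 groups of 3 arrays, likeness mostly means a change of the same size.

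Of 39 other retinoid pathway genes listed by role, 32 were measured by a probe set of their own. Among them 9 were higher, 8 lower and 15 did not pass. Thus 17 of 32 passed, against 60.0% of all genes, with a median change of 0.00 (rounded). At least 2-fold changes that passed were found for 3 of 32 genes, near the 11.3% of all genes. The genes that reduce or oxidise retinoids held the most marked rises. RDH8, a retinal reductase of photoreceptors, had levels of 8.30, 8.43 and 8.41 in SAHA cells, against 6.46, 6.45 and 6.44 in control cells, a rise of 1.93 (3.81-fold, adjusted p = 3.26e-08, limma). RDH12, a further photoreceptor retinal reductase, had levels of 7.60, 7.70 and 7.76 in SAHA cells, against 6.31, 6.49 and 6.62 in control cells, and rose by 1.21 (adjusted p = 4.38e-06, limma). RDH11, a broadly expressed retinal reductase, fell by 0.61 (adjusted p = 8.81e-06, limma), to 10.80 ± 0.03 in SAHA, against 11.41 ± 0.05 in control (SD, n = 3 each). In this group of 12 measured genes 4 were higher, 1 was lower and 7 did not pass. The 5 of 12 passing, with a median change of -0.03, stand against 60.0% of all genes, 31.1% higher and 28.9% lower. One gene that did not pass was RDH10, the main retinol dehydrogenase of the embryo (change -0.10, 95% confidence interval -0.21 to 0.01). It passed as lower with trend and robust moderation and without control replicate 2 (adjusted p 0.0162 to 0.288 over 15 alternatives, limma). DHRS3, like RDH11, differed in direction from RDH8 and RDH12, which catalyse the same conversion.

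Among 11 carriers and storage genes of retinol, 5 were higher and 3 lower, against 31.1% higher and 28.9% lower of all genes. LRAT, which esterifies retinol for storage, had levels of 7.07, 7.24 and 7.16 in SAHA cells, against 5.97, 5.85 and 6.38 in control cells, a rise of 1.09 (2.13-fold, adjusted p = 0.000111, limma). All of the 3 falls were small (changes of -0.23 to -0.13), and the calls of TTR and RPE65 ended in 10 of 14 and 9 of 13 alternatives. CYP26C1, the remaining member of the CYP26 family, changed by 0.01 with a 95% confidence interval of -0.15 to 0.18, and CYP1B1 and ALDH8A1 did not pass either. Of the receptors, 3 of 5 measured were lower and 2 did not pass, against 28.9% of all genes lower. The receptor gene RARA was not among the measured genes, and the call of RXRB as lower ended in 5 of 15 alternatives. RARB, a receptor gene that is itself a retinoic acid target, was at 10.97, 10.99 and 10.96 in SAHA cells and 11.61, 11.62 and 11.62 in control cells, a fall of 0.64 (adjusted p = 2.46e-06, limma). RXRA, the common partner receptor, fell by 0.56 (adjusted p = 2.54e-05, limma). Of 8 pathway genes lower, 5 remained so without SAHA replicate 2, where TTR, RPE65 and RXRB no longer passed.

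Of 14 genes known to be raised by retinoic acid, 11 were measured, and 2 were higher, 3 lower and 6 did not pass, with a median change of 0.00. Thus 5 of 11 passed, against 60.0% of all genes. TGM2, the tissue transglutaminase, had levels of 10.67, 10.65 and 10.64 in SAHA cells, against 7.88, 7.68 and 7.79 in control cells, a rise of 2.87 (7.31-fold, adjusted p = 1.15e-08, limma). HOXB4, a homeobox gene, rose by 0.14 (adjusted p = 0.0482, limma), and its call ended when any array other than control replicate 2 was left out (adjusted p up to 0.163 over 14 alternatives). The falls were those of PLAAT4, a phospholipase-like tumour suppressor (change -0.93, adjusted p = 2.41e-06, limma), RARB, and CRABP2, which carries retinoic acid to its receptors (change -0.36, adjusted p = 8.92e-05, limma). TGM2 rose while CYP26A1, STRA6 and DHRS3 among the 9 genes, also known as raised by retinoic acid, fell.

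**Figure D4:**
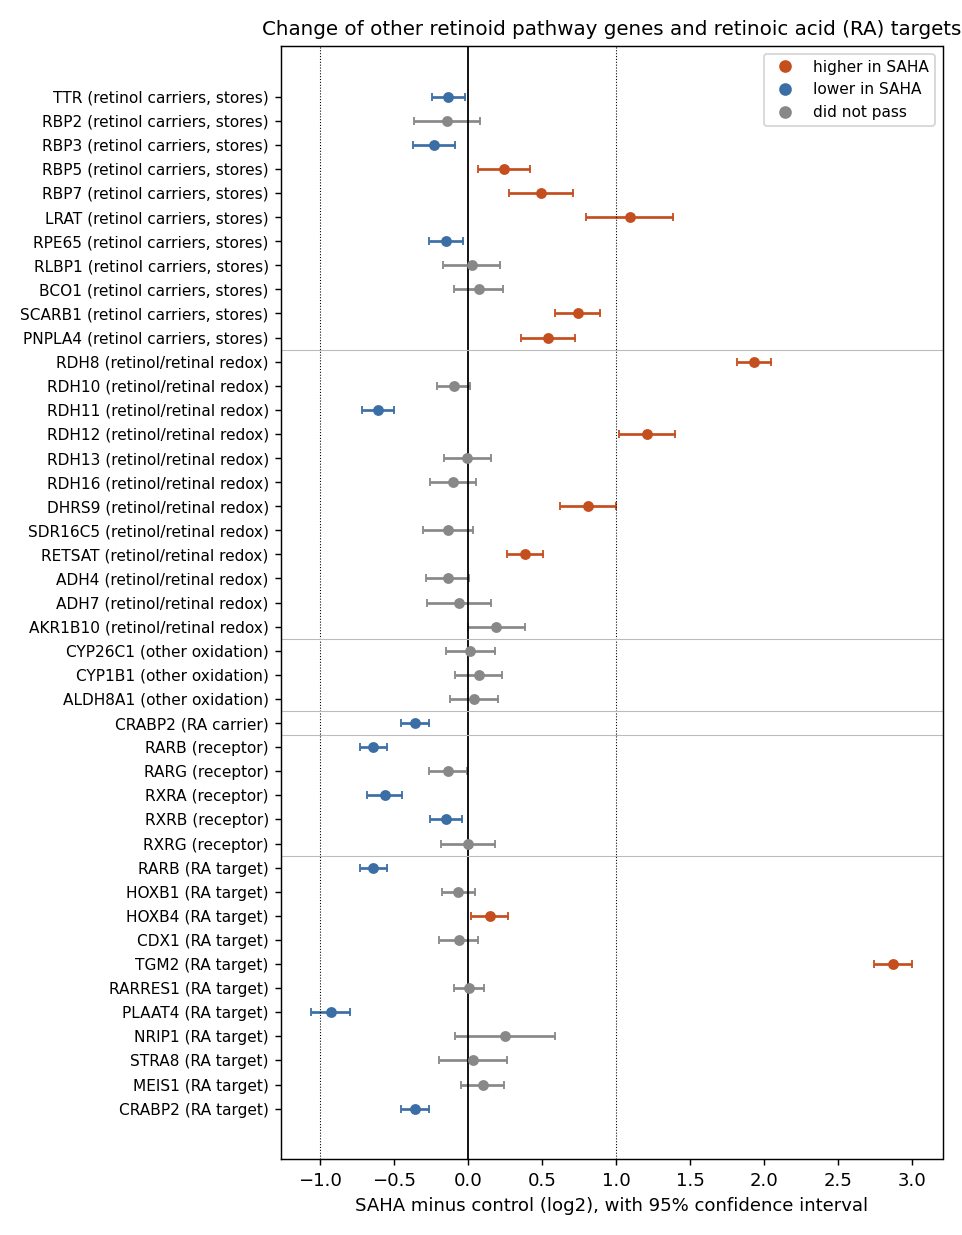
Change (SAHA minus control, log2) of the other retinoid pathway genes and the retinoic acid targets, grouped by role, with 95% confidence intervals from limma; orange genes were higher and blue genes lower at an adjusted p under 0.05, grey did not pass, and dotted lines mark 2-fold. TGM2 at 2.87 and RDH8 at 1.93 stand furthest to the right, and the receptors RARB and RXRA lie left of 0; RARB and CRABP2 are drawn in both of the groups they belong to.

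The spacer-5 repeat of the CYP26A1 window was followed to the other genes that carry one, a search added after the values of the 9 genes were seen. Of 24 genes with such a repeat in a window, 10 were measured, and 3 were higher, 3 lower and 4 did not pass, with a median change of -0.05. These 6 of 10 are at the background share, as 60.0% of all genes passed, 31.1% higher and 28.9% lower. The sites of the 6 genes that passed are shown on the strand that reads as a direct repeat, with half-sites in capitals, the first 3 from genes lower and the others from genes higher in SAHA, on GRCh38.p14.
CYP26A1 (chr10:93073803-93073819, minus strand): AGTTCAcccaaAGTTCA
RARB (chr3:25428210-25428226, plus strand): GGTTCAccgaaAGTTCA
HROB (chr17:44141766-44141782, minus strand): GGTTCAgcactGGTTCA
BATF2 (chr11:64990290-64990306, minus strand): AGTTCAtgtgaGGGTCA
CYB5R2 (chr11:7673082-7673098, plus strand): GGGTCAgctgcAGGTCA
KRT40 (chr17:40987306-40987322, plus strand): GGGTCAgctcgGGTTCA
CYP26A1 and RARB, the genes in which this element is classically known, changed by -0.71 and -0.64. HROB, a recombination gene, changed by -0.98, whereas the transcription factor gene BATF2 changed by 1.08, the reductase gene CYB5R2 by 0.88 and the keratin gene KRT40 by 0.64.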

How the data were processed

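Trizol-extracted RNA was labelled with an Ambion whole-transcript kit for Affymetrix arrays, per the labels' protocols. The authors deposited an RMA intensity for each probe set, per the submitters' processing notes; program and version: not given in the sources used here. By design, RMA corrects background, quantile-normalizes arrays and combines probes, so it hides changes of total RNA and can shrink differences of dim genes. The deposited intensities were linear (6.56 to 20338) and were turned to log2 here. Of 33252 probe sets, the 19460 annotated to a single gene were used, and 19429 of them were matched to a RefSeq symbol by Entrez identifier. A gene's value is that of its brightest such probe set (mean of 6 arrays), which gave 18417 genes, dim ones included. Scanner files were not used here. The number of arrays limits the precision.

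Groups were compared with limma 3.58.1 (R 4.3.3; lmFit, eBayes, no covariate, two-sided), with p-values adjusted by Benjamini-Hochberg over the 18417 genes and called under 0.05. Changes are SAHA minus control, in log2 units. The code was tested on simulated data. The genes, lists and tests were chosen with earlier results of these data known. Named were all 9 genes, the 3 largest called rises and falls of each list, check genes and the nearest patterns; others were chosen after their values were seen. Some genes of the lists were not analysed here. Same-numbered arrays did not deviate together (r = -0.0304, -0.167 and -0.00423), so no block was used. Alternatives were 3 other scalings, 2 filters, 2 treatments of probe sets, trend and robust moderation, the replicate block and each array left out. Promoter windows came from RefSeq.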

Additional observations from a re-analysis of the deposited data

How the results depend on the processing

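Of 130 values of the 9 genes under the alternatives, 130 kept their direction and 123 also kept their side of the threshold. The 7 exceptions were all RBP4 values, whose call ended with every probe set tested (change 0.209, adjusted p = 0.0911), with trend and robust moderation (change 0.209, adjusted p = 0.0543) and without each of 5 arrays (change 0.137 to 0.275 over all 6 arrays left out in turn). The change of the second ALDH1A3 probe set, -0.11 (adjusted p = 0.198 over all probe sets, limma), entered these values only through the mean of both. All 32 paralog differences kept their direction. Where genes below the median level were dropped, 1 of the 9 genes was higher and 2 were lower, since 4 were still tested. Of the 10 pathway genes still tested there, 2 were higher and 6 lower, and of 3 targets, 1 was higher and 2 lower. In this setting 7653 of all 9209 genes passed. Of the pathway genes, 5 were lower after cyclic loess, with the replicate block and without SAHA replicate 2, within a range of 5 to 8 with 1 array left out. The count of targets higher was 1 in place of 2, for HOXB4, after a further quantile normalization, after cyclic loess, with every probe set, with trend and robust moderation and with the replicate block, and 1 to 2 with 1 array left out. The replicate block changed no call of the 9 genes, and RBP4 passed there at adjusted p = 0.0159. The cause of these changes was not tested. Without detection calls, the levels of ALDH1A1 in control, of CYP27C1 in SAHA and of RBP4 in both groups may be background.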
